A study of Arabidopsis thaliana with 6 samples.

Results

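PDE318 and CRR2 are a pair of Arabidopsis nuclear genes tied by name or function to the making of plastids, and their transcripts are described here in bundle sheath cells (BSCs) and mesophyll cells (MCs) of the leaf. They were found by locus code, AT1G80770 for PDE318 on chromosome 1 and AT3G46790 for CRR2 on chromosome 3, each with 1 probe set among 22746 Arabidopsis probe sets of the array. Both probe sets were named only through the study's own list of genes that differed between BSCs and MCs, so the 2 genes were chosen by that contrast. Their difference between the cell types is therefore given as a description, with no test. The samples were BSC and MC protoplasts, cells freed of their walls, from leaves of Arabidopsis ecotype Landsberg carrying SCR:GFP, a green fluorescent protein driven by the SCARECROW promoter, which all 6 samples share. BSC protoplasts of 25 to 30 µm were picked by hand for their GFP, and MC protoplasts of 40 to 45 µm for lack of it, with no treatment given and with about 20 protoplasts in each pool. RNA of each pool was amplified in 3 rounds and hybridized to an Affymetrix ATH1 array of its own, 3 for BSCs (here BSC arrays 3, 5 and 7, after the labels) and 3 for MCs (MC arrays 4, 6 and 8). Levels are log2(NREL), the log2 of the normalized raw expression level, in which a difference of 1 is a doubling.

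Plastids keep a small genome, and most of the proteins that transcribe, process and translate its RNA are encoded in the nucleus and imported. CRR2, named for chlororespiratory reduction, is a pentatricopeptide repeat (PPR) protein, one of a large family of RNA-binding proteins that cut, stabilize or edit organelle transcripts. It is needed to process the chloroplast RNA between rps7, a ribosomal protein gene, and ndhB, a subunit gene of the NADH dehydrogenase-like (NDH) complex, which passes electrons around photosystem I. PDE318 belongs to the PIGMENT DEFECTIVE genes, named for mutants with pigment defects. The study's own tables title it in one place as a GTP-binding protein and in another as a ferrous iron transporter, and both roles are considered in the lists below.

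One array, BSC array 7, differed from the rest in quality measures. Only 78 of its probe sets reached a log2(NREL) of 5, where the other arrays had 406 to 1157, and the bacterial spike-in bioB was brightest on it (9.14, elsewhere 5.30 to 7.32). The signal of control probe sets at the 3' end of a transcript, minus that at the 5' end, was also lowest on it. For GAPDH it was 0.35 there, 2.39 and 1.97 on BSC arrays 3 and 5 and 1.10 to 1.51 on MC arrays. For ubiquitin it was 0.90 there and 3.63 to 4.50 elsewhere. Of the marker lists, 1 of 5 bundle sheath genes had a named probe set. This was BCAT4, an aminotransferase of glucosinolate synthesis, at 5.53, 5.23 and 1.79 on BSC arrays 3, 5 and 7 and at 2.08, 2.65 and 2.24 on MC arrays 4, 6 and 8. BCAT4 on BSC array 7 thus lay below all MC arrays, and its difference of 1.86 (standard error 1.01) passed the test described below only without that array (3.06) and with array weights (2.89). Of 8 mesophyll photosynthesis genes only RCA, the Rubisco activase, was named, at 8.34, 7.57 and 3.66 in BSCs and 6.69, 8.98 and 6.15 in MCs. SWEET11, a sugar transporter of the phloem (1 of 6 listed), was at 2.43, 3.60 and 3.80 in BSCs and 3.43, 3.55 and 2.78 in MCs. The guard cell genes FAMA and GC1 (2 of 5) had differences of 0.17 and 0.13 (standard error 0.16 and 0.15), and no epidermis gene of 5 was named. The part of these cell types and of array quality in the levels of PDE318 and CRR2 was not tested. Each pool was picked by hand, cell by cell, to about the same number of protoplasts. The paper describes a visual check that each collection held the intended cell type. Whether a stray cell of another type or the RNA yield per cell played a part in these levels was not tested. No value is for a single protoplast.

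PDE318 was at a log2(NREL) of 5.87 on BSC array 3, 5.71 on BSC array 5 and 3.25 on BSC array 7. In MCs it was at 2.87 on array 4, 3.46 on array 6 and 2.50 on array 8. BSC arrays 3 and 5 were well above every MC array, whereas BSC array 7 lay among them, 0.21 below MC array 6 on the log2 scale, so the levels of the cell types overlapped. All 6 levels were above the median of their own array, by 1.20 to 3.99 in BSCs and by 0.48 to 1.57 in MCs. They were also above the upper quartile of each array, which lay between 2.35 and 2.44. PDE318 reached the study's level for high expression, a log2(NREL) of 3.5, on 2 BSC arrays and on 0 MC arrays, and its level for expressed genes, 2, on all 6.

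CRR2 levels are not set against those of PDE318, since different probe sets respond differently. CRR2 was at 3.64 on BSC array 3, 2.51 on BSC array 5 and 2.34 on BSC array 7. On MC arrays 4, 6 and 8 it was at 1.64, 1.62 and 1.54. The lowest BSC level exceeded the highest MC level by 0.70, so the cell types did not overlap. Every BSC level over every MC level was a pattern found for 3.14% of all probe sets, given here beside CRR2 with nothing read from it, since CRR2 was chosen on this contrast. In BSCs CRR2 was above the array median by 1.76, 0.53 and 0.28 on arrays 3, 5 and 7, and on array 7 it was below the upper quartile of 2.44. In MCs it was below the array median by 0.36, 0.27 and 0.47 on arrays 4, 6 and 8 and under the level for expressed genes on all 3. The files give no detection calls, so these MC values do not say whether the CRR2 transcript was present. The same limit holds for BSC arrays 5 and 7, where CRR2 lay only 0.53 and 0.28 above the array median.

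**Figure D1:**
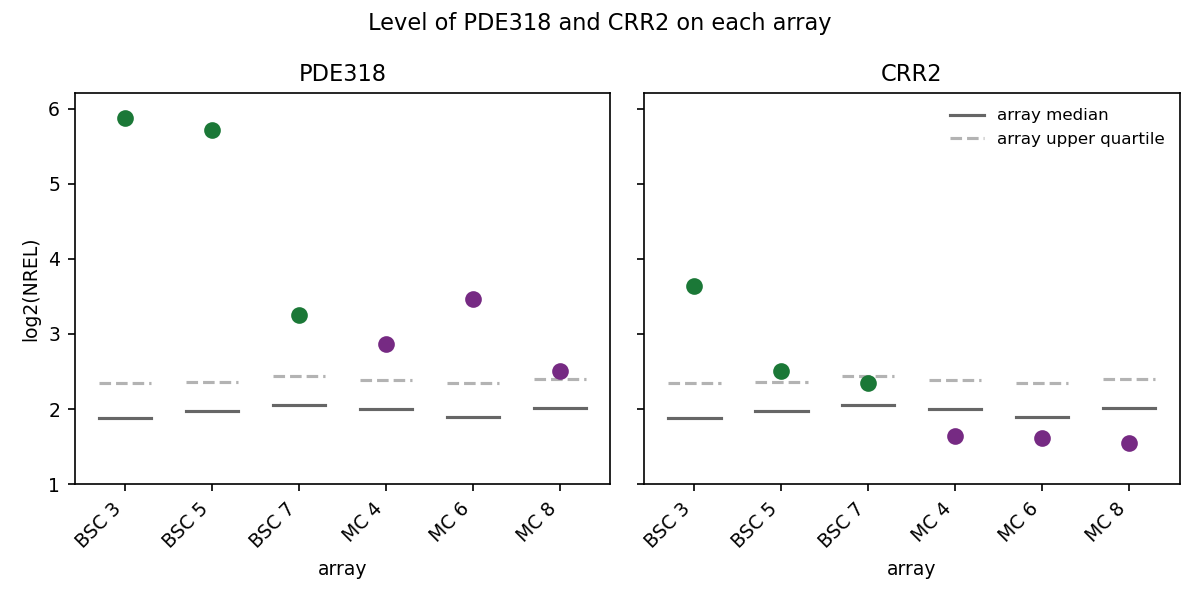
Levels of PDE318 (left) and CRR2 (right) as log2(NREL) on each of 3 BSC arrays (green) and 3 MC arrays (purple), 1 point per array, with the median (solid line) and upper quartile (dashed line) of all probe sets of that array. PDE318 on BSC array 7 (3.25) lies below MC array 6 (3.46), whereas CRR2 lies below the array median on every MC array and above it on every BSC array.

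PDE318 averaged 4.95 ± 1.47 on the BSC arrays and 2.94 ± 0.48 on the MC arrays (SD, n = 3 each). The difference of 2.00 on the log2 scale is a 4.0-fold higher mean in BSCs. Of 22746 probe sets, only 9 others had a larger positive difference, so PDE318 was at place 10 (0.044% of probe sets at or above it). CRR2 averaged 2.83 ± 0.71 and 1.60 ± 0.05 (SD, n = 3 each), a difference of 1.23 and a 2.34-fold higher mean in BSCs. It was at place 100 (0.44%). The median difference of all probe sets was 0.01. These places describe the choice of the 2 genes and carry no test.

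The spread between arrays was wide for both genes in BSCs. The SD of PDE318 over BSC arrays was larger than that of 95.8% of probe sets, and that over MC arrays larger than 88.8%. For CRR2 the SD was above that of 89.4% of probe sets in BSCs and of only 8.69% in MCs, where its 3 levels lay within 0.10 of each other. Those 3 levels were below the array median, and the deposited values shrink differences of dim probe sets. The small SD in MCs thus does not show a steady transcript level. The median SD of a probe set was 0.21 in BSCs and 0.16 in MCs. In PDE318 the BSC spread came from array 7, the lowest by 2.46, and in CRR2 from array 3, the highest by 1.13.

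Taken array against array, PDE318 was higher in BSCs in 8 of 9 pairings. BSC array 3 exceeded MC arrays 4, 6 and 8 by 3.0, 2.41 and 3.37, and BSC array 5 exceeded them by 2.84, 2.25 and 3.21. For BSC array 7 the differences were 0.38, -0.21 and 0.75. CRR2 was higher in all 9 pairings, by 1.99, 2.02 and 2.09 for BSC array 3, by 0.86, 0.89 and 0.96 for BSC array 5 and by 0.70, 0.73 and 0.80 for BSC array 7. Hence the size of the PDE318 difference turned on whether BSC array 7 was one of the pair, and that of CRR2 on whether BSC array 3 was. The 9 pairings share 6 arrays and are not 9 measurements.

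**Figure D2:**
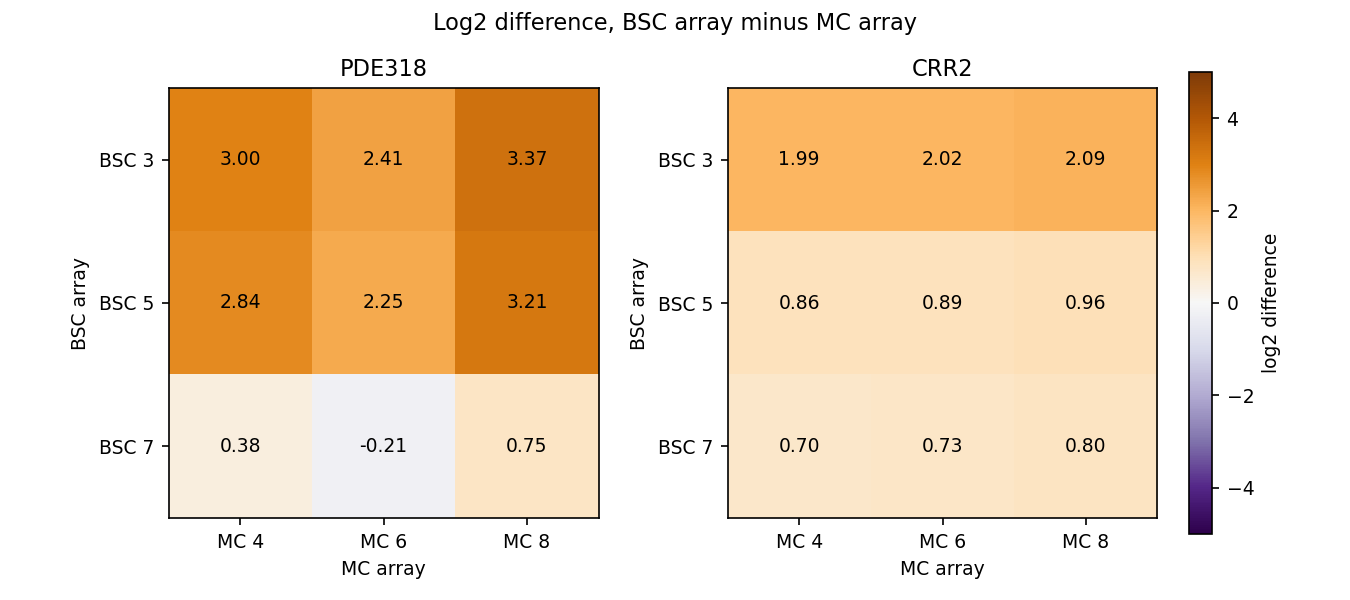
Log2 difference, BSC array (rows) minus MC array (columns), for PDE318 (left) and CRR2 (right), with the value printed in each cell and the color scale at the right. For PDE318 the row of BSC array 7 runs from -0.21 to 0.75 and the other rows from 2.25 to 3.37, and for CRR2 the row of BSC array 3 runs from 1.99 to 2.09 and the others from 0.70 to 0.96.

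Without BSC array 7 the PDE318 difference was 2.85, a 7.19-fold higher mean in BSCs, and that of CRR2 was 1.47. Without BSC array 3 the differences were 1.54 for PDE318 and 0.82 for CRR2, the smallest of any array left out for either gene. Leaving out an MC array gave 1.78 to 2.26 for PDE318 and 1.20 to 1.25 for CRR2. Paired with the MC array nearest to it in the bioB spike-in, BSC array 3 (5.53, against 5.30 on MC array 6) exceeded it by 2.41 for PDE318 and 2.02 for CRR2. BSC array 5 and MC array 8, both at 6.99 for bioB, differed by 3.21 for PDE318 and 0.96 for CRR2. For BSC array 7 no MC array was close, the nearest being MC array 4 at 7.32, with differences of 0.38 and 0.70.

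The rank of a probe set within its own array does not depend on how bright the array is as a whole. Counted from the brightest probe set, PDE318 ranked 717, 401 and 1320 on BSC arrays 3, 5 and 7 and 2753, 2432 and 4836 on MC arrays 4, 6 and 8. Although its levels overlapped, these ranks did not, and BSC array 7 was nearer the top than any MC array. A rank does depend on how many bright probe sets an array has. BSC array 7 had only 78 at a log2(NREL) of 5, against 406 to 1157 on the others. At 3.25 PDE318 ranked 1320 there, whereas at 3.46 it ranked 2432 on MC array 6. The part of this in the separation of the ranks was not tested. The ranks place PDE318 above 94.2 to 98.2% of the probe sets of each BSC array and above 78.7 to 89.3% of those of each MC array. CRR2 ranked 2264, 4529 and 6892 on BSC arrays 3, 5 and 7 and 19572, 17836 and 21152 on MC arrays 4, 6 and 8. It was above 69.7 to 90.1% of probe sets in BSCs and above 7.01 to 21.6% in MCs. Ranks that were nearer the top on every BSC array than on every MC array were found for 901 of 22746 probe sets, or 3.96%, a share from which nothing is read for a pair of genes chosen on the same arrays. In mean rank, PDE318 was 2528 places and CRR2 14958 places nearer the top in BSCs. Many probe sets lie close together near the array median, so a place there stands for a smaller difference in level than a place near the top.

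**Figure D3:**
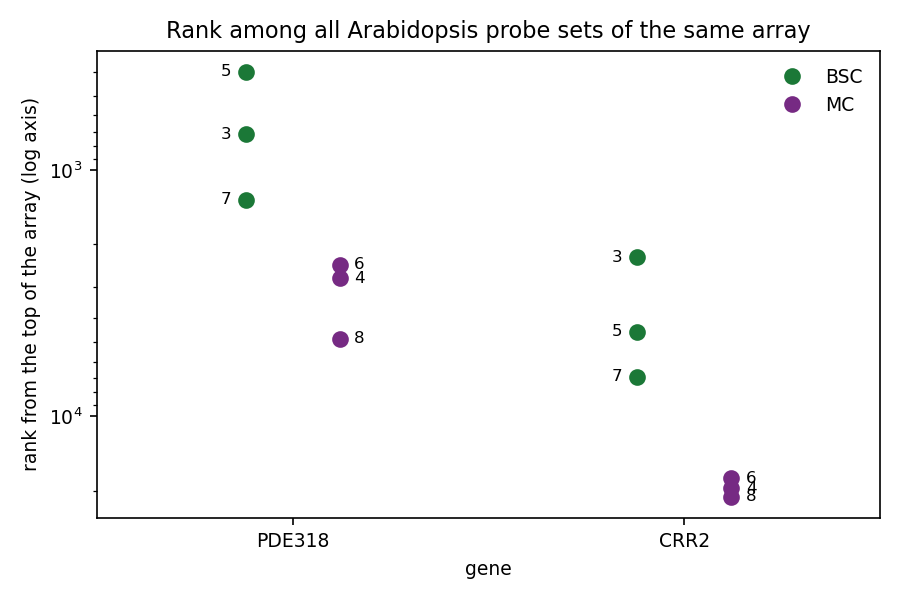
Rank of PDE318 and CRR2 among 22746 probe sets of the same array, on a log axis with the brightest probe set at the top, 1 point per array with its array number (green for BSC, purple for MC). For both genes the 3 BSC ranks lie above the 3 MC ranks, with PDE318 between 401 and 4836 and CRR2 between 2264 and 21152.

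The genes that work with CRR2 were compared between the cell types in limma, whose linear models borrow the spread of one probe set from all the others. A probe set was called where its unadjusted p was below 0.05 and its mean differed at least 1.5-fold. Of 22746 probe sets 114 were called (0.501%), 32 of them higher in BSCs (0.141%) and 82 lower (0.361%). None had an adjusted p under 0.05 by limma (Benjamini-Hochberg) or by the methods' t-test, with 365 and 515 at an unadjusted p under 0.05. The adjusted p of every gene tested below was 1. The chloroplast transcript pair on which CRR2 acts had lower means in BSCs, and neither gene was called. For ndhB the levels were 4.36, 3.20 and 3.0 on BSC arrays 3, 5 and 7 and 3.92, 6.68 and 4.30 on MC arrays 4, 6 and 8, a difference of -1.45 (standard error 0.81). It was called as lower after quantile normalization (-1.41) and with array weights (-1.10). For rps7 they were 10.42, 9.89 and 5.52 in BSCs and 10.01, 10.62 and 10.65 in MCs, a difference of -1.82 (standard error 1.31). In both genes the cell types overlapped, and BSC array 7 was the lowest of the 6 arrays. The array measures the amount of a stretch of these transcripts, not whether they were cut, so the step that needs CRR2 was not measured. Both genes lie in the repeated part of the chloroplast genome, and each probe set covers both copies.

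All 12 listed genes of the chloroplast genome, 11 ndh genes and rps7, had a named probe set. Their median difference was -1.07, against 0.01 over all probe sets, 11 of 12 had a lower mean in BSCs, and 0 were called in either direction. Among them ndhI, another NDH subunit, had the lowest p and the most negative difference, -2.13 (standard error 1.02), with 6.04, 4.60 and 2.09 in BSCs and 5.61, 6.83 and 6.68 in MCs. It was called after quantile normalization (-2.35), with array weights (-1.58) and without BSC array 3 (-3.02). The median level of the 12 was 2.81 on BSC array 7, against 6.39 and 5.01 on BSC arrays 3 and 5 and 4.02, 7.16 and 6.57 on MC arrays 4, 6 and 8. Without BSC array 7 the median difference was -0.08 and 6 of 12 had a higher mean in BSCs. It was -0.43 without MC array 6, -1.82 without BSC array 3 and -1.75 without MC array 4. CRR2, by contrast with ndhB and rps7, had its BSC levels above its MC levels with or without BSC array 7. The study had picked CRR2 for this difference and had not picked ndhB and rps7, so nothing is read from the contrast.

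**Figure D4:**
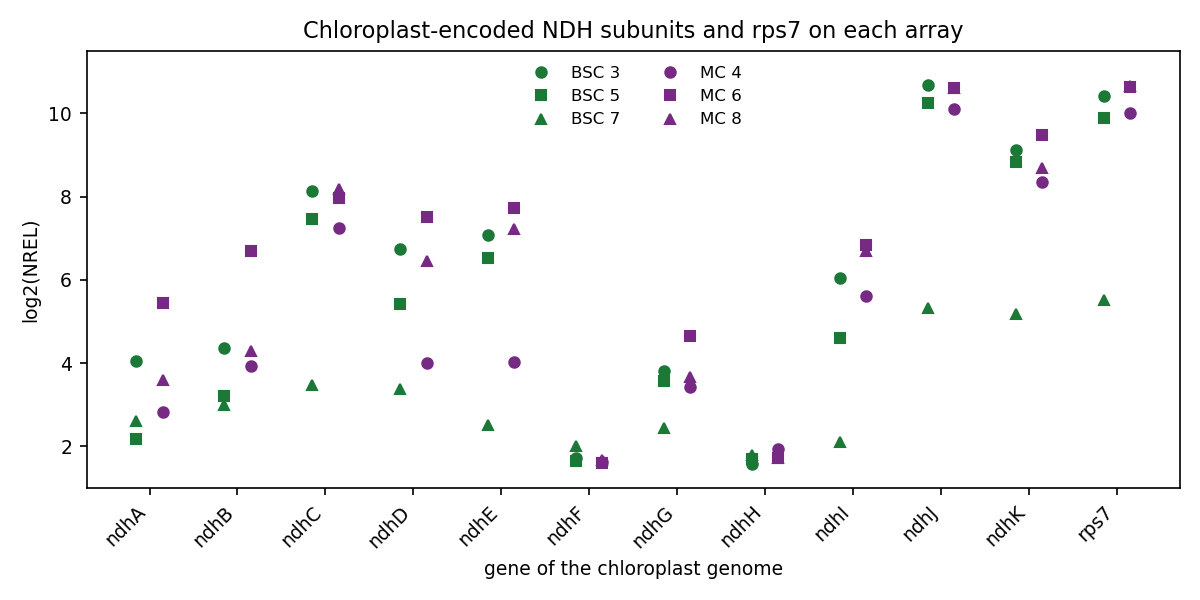
Levels as log2(NREL) of 11 chloroplast-encoded NDH subunit genes and rps7 on each array (green for BSC, purple for MC, with a marker shape for each array). BSC array 7 (green triangles) is the lowest of the 6 arrays for ndhB, at 3.0, and for rps7, at 5.52, whereas BSC array 3, at 10.42 for rps7, lies among the MC arrays and BSC array 5, at 9.89, just below them.

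Of the nuclear NDH subunits, 3 of 19 had a named probe set, and all 3 had a lower mean in BSCs, with 0 called and a median difference of -0.37. Without MC array 6 the median was -0.18 and 1 of 3 had a higher mean in BSCs. NDHL differed by -0.53 (standard error 0.39; it was called without BSC array 7, at -0.91), NDHN by -0.35 (0.19) and NDHS by -0.37 (0.56). A list of NDH assembly factors and PPR proteins that process or edit chloroplast transcripts, most of them ndh transcripts, had 9 of 16 members named and 0 called. Among the 9, OTP80 and OTP86 are known for editing transcripts of ribosomal protein genes instead. Their differences ran from -0.02 to 0.10 with a median of 0.06, against 0.01 over all probe sets, and the median was -0.07 without BSC array 7 and -0.01 without MC array 6. Most of the 9 were dim: their median level lay below the array median on all 6 arrays. Only 4 of the 9 had a mean of at least 2. The deposited values shrink differences of dim probe sets towards 0, so these small differences do not show equal transcript levels. CRR28, a PPR editing factor of ndh transcripts, was at 1.71, 1.62 and 1.88 in BSCs and 1.67, 1.54 and 1.73 in MCs, a difference of 0.09 (standard error 0.11). OTP80 differed by 0.10 (0.20), and CRR41, an assembly factor, by 0.06 (0.12). CRR2, with 1.23, lay outside the range of these 9. As the study had picked CRR2 for its difference and had not picked these 9, no test was made between them.

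Other plastid RNA factors were not called either. Of 19 such PPR and related proteins 6 were named and 0 called, with a median of -0.03. Only 2 of the 6 had a mean of at least 2, and the deposited values shrink differences of dim probe sets towards 0. The lack of calls therefore does not show equal transcript levels. ELI1 differed by -0.13 (standard error 0.10), YS1 by 0.07 (0.11) and SOT1 by -0.63 (0.50), the last with MC array 6 at 3.58 against 1.65 to 2.07 on the other arrays. Of 13 genes listed for the words pentatricopeptide or PPR in their names, PPR336 (0.09, standard error 0.10) and PPR596 (-0.08, 0.09) had a named probe set and were not called. Both were under the level for expressed genes on all 6 arrays, so the same limit holds for them.

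For the GTP-binding title of PDE318, 6 of 21 plastid GTPases and translation factors were named, with 0 called, 1 of 6 with a higher mean in BSCs and a median difference of -0.17. Without MC array 6 the direction turned, to a median of 0.43 with 4 of 6 higher, and without BSC array 7 the median was 0.02 with 3 of 6 higher. FTSZ2-2, a plastid division protein, was the one with the higher mean, by 0.41 (standard error 0.79), and was called with array weights (1.47). FTSZ2-1 differed by -0.89 (1.15) and FUG1, a plastid translation initiation factor, by -0.64 (1.16). NOG1-1 and NOG1-2, nucleolar GTPases of ribosome assembly, differed by 0.14 (0.30) and 0.08 (0.21). For the iron title, only MIT1 and MIT2, which bring iron into mitochondria, were named of 21 genes of iron transport and storage, with differences of 0.00 (0.12) and -0.17 (0.28), and both had a higher mean in BSCs without MC array 6. The most positive difference of these lists was thus 0.41, beside 2.00 for PDE318, and most listed genes were not analysed here. As the study had picked PDE318 for its difference, nothing is read from this comparison. The NOG1 and iron genes also averaged under 2 over the 6 arrays, where the deposited values shrink differences towards 0. No other PIGMENT DEFECTIVE gene, of 39 listed, had a named probe set.

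In the further machinery of plastid gene expression, RPOTMP, an organelle RNA polymerase, was the single named member of 24 transcription genes, with a difference of -0.26 (standard error 0.16). Of 36 nuclear proteins of the plastid ribosome 8 were named, 7 with a lower mean in BSCs and a median of -0.53, which was -0.10 with 3 of 8 higher without MC array 6. PRPL3 alone was called, at 2.08, 2.23 and 1.99 in BSCs and 2.51, 3.27 and 2.53 in MCs, lower in BSCs by a difference of -0.67 (standard error 0.23, unadjusted p = 0.0287 in limma). The study's list holds PRPL3 too, so its direction is not independent evidence. Its call was lost without BSC array 3, BSC array 7 or MC array 6 and in the methods' t-test, after centring and with array weights, whereas 3 of the 8 were called without MC array 8.

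**Figure D5:**
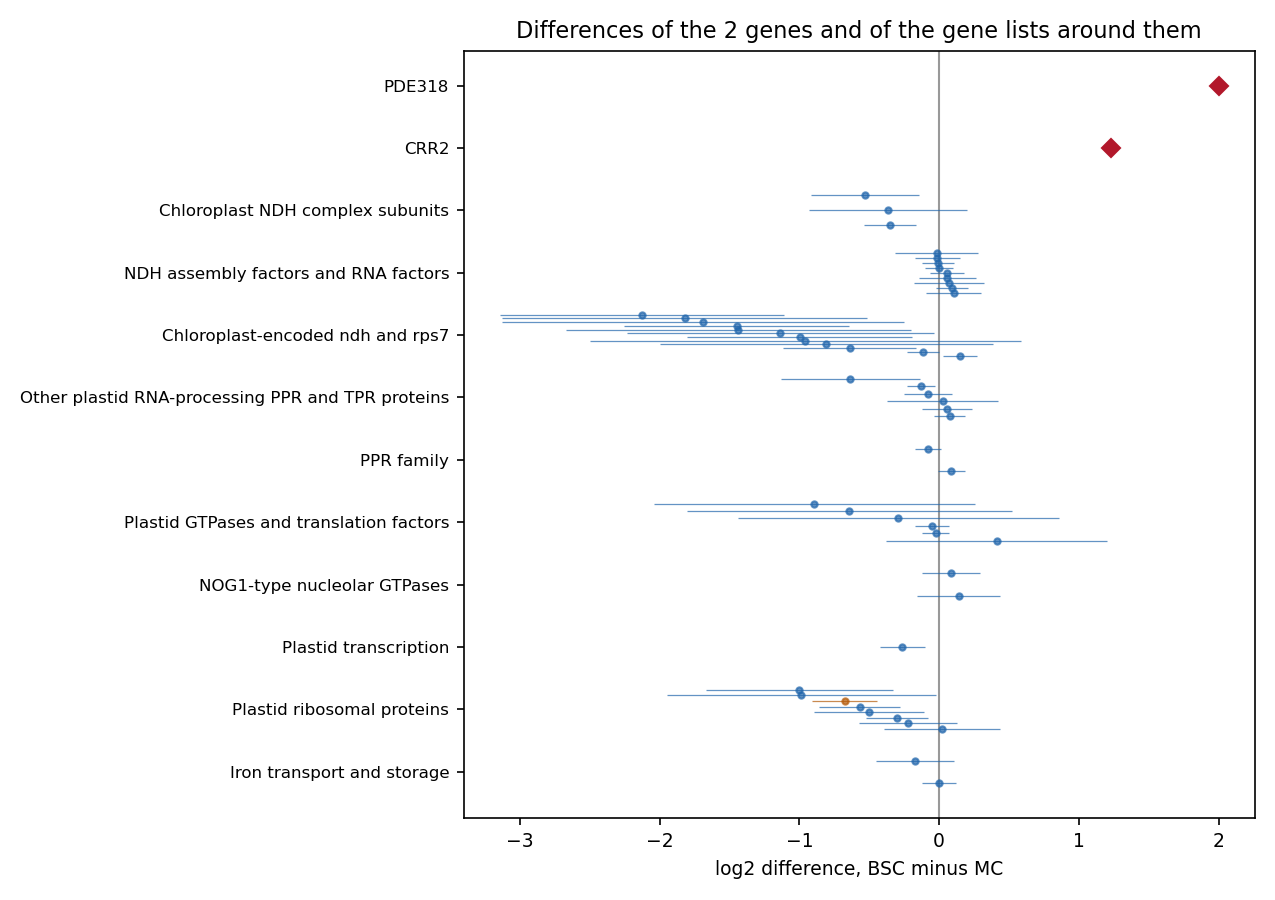
Log2 difference, BSC minus MC, for PDE318 and CRR2 (red diamonds, without error bars because they were chosen by this contrast) and for each named member of 10 gene lists (points with limma standard errors). PRPL3 (orange, -0.67) is the only list member called. The 9 NDH assembly and RNA factors, only 4 of them with a mean level of at least 2, lie between -0.02 and 0.10 against 1.23 for CRR2.

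The genes most like PDE318 over the 6 arrays were sought among 1527 named genes with an SD of at least 0.5 on the log2 scale, with Pearson's r as the measure of likeness and no test. RAN1, a copper-transporting ATPase, came first (r = 0.996), at 3.99, 3.81 and 2.76 on BSC arrays 3, 5 and 7 and 2.48, 2.72 and 2.38 on MC arrays 4, 6 and 8. It was followed by HA2, also written AHA2, a plasma membrane proton pump (0.990), at 6.54, 6.18 and 3.67 in BSCs and 3.68, 4.43 and 3.30 in MCs. Next were AT5G16880 (0.985), AT5G05010 (0.983) and SWN, a Polycomb-group histone methyltransferase (0.979). Like PDE318, each of the 5 was highest on BSC arrays 3 and 5, with BSC array 7 near the MC arrays. In all, 41 of the 1527 had an r of at least 0.9 with PDE318.

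For CRR2 the most alike were AT2G01600 (r = 0.977), TIM17-1, of the mitochondrial protein import channel (0.976), CYTC-2, a cytochrome c (0.957), AT1G61740 (0.956) and mSFC1, a carrier of the mitochondrial inner membrane (0.946). TIM17-1 was at 3.27, 2.86 and 2.57 on BSC arrays 3, 5 and 7 and at 2.17, 2.00 and 2.09 on MC arrays 4, 6 and 8. CYTC-2 was at 4.18, 2.67 and 2.38 in BSCs and 2.11, 2.27 and 2.03 in MCs, with BSC array 3 the highest as for CRR2. An r of at least 0.9 with CRR2 was found for 35 genes. PDE318 and CRR2 themselves had r = 0.851. These values rest on 6 arrays that share the same groups, and RAN1, HA2, AT5G05010, SWN, TIM17-1 and mSFC1 are also in the study's list, chosen on the same contrast. Names were given to 46 probe sets only because they were in that list, whereas 9256 stayed unnamed. The genes compared can therefore hold more of the study's list than an unselected set would.

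On the chromosome, the next named gene after PDE318, AT1G80780, was at 1.78, 2.1 and 2.64 on BSC arrays 3, 5 and 7 and 2.44, 2.04 and 2.38 on MC arrays 4, 6 and 8, a difference of -0.12 (standard error 0.25). It thus lacked the high levels of PDE318 on BSC arrays 3 and 5. AT3G46800, after CRR2, was at 1.53, 2.37 and 1.95 in BSCs and 2.20, 1.86 and 2.22 in MCs, a difference of -0.15 (0.24), with BSC array 3 the lowest of the 6 where CRR2 was at its highest. Neither was called, and the genes before PDE318 and CRR2 were not analysed here.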

How the data were processed

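For each of 6 arrays the authors deposited log2(NREL), a log2 value for every probe set made by the robust multi-average (RMA) method in Partek (version 6.6 in the submitters' processing notes). As deposited, the arrays did not share the same distribution of values, with medians from 1.88 (BSC array 3) to 2.06 (BSC array 7). Such values shrink differences of dim probe sets towards 0, and the depth of an array is limited by the signal of about 20 protoplasts after amplification. The values were used as deposited, all 6 columns, assigned by array label, without 64 control probe sets. The array annotation, with symbols of the TAIR10.1 gene table, named 13436 of 22746 probe sets, a further 8 each covered both copies of a repeated plastid gene, and 46, among them PDE318 and CRR2, had a name only from the study's list. The other 9256 were not named. The array annotation gave several genes, other than such plastid copies, for 495 probe sets. The authors' p-values and fold changes in that list were not used.

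Groups were compared by lmFit and eBayes of limma 3.58.1 under R 4.3.3 (2-sided, Benjamini-Hochberg over 22746 probe sets), checked on simulated data. With 3 arrays against 3 an exact permutation cannot go below p = 0.1, so none was made. The arrays are the study's biological replicates, pools whose plants the labels do not identify. PDE318, CRR2 and the gene lists were chosen with earlier results of these data known. In each list the members called, or else the 3 with the smallest p, are named. The 5 genes most like each of the pair, the named neighbours, ndhB, rps7 and the NDH subunits are named as well. Of several probe sets of a gene, the brightest on average stood for it. Alternatives were a Student t-test, a trended prior, median centring, quantile normalization, a mean of at least 2, array weights and each array left out. For the array values the study's methods name an ANOVA, whose simplest form for 2 groups is the Student t-test. PPR genes were listed by their names in the gene table, because no descriptions were at hand. Python 3.11.15, pandas 2.3.3 and matplotlib 3.10.9 were used.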

Additional observations from a re-analysis of the deposited data

How the results depend on the processing

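PDE318 and CRR2 kept a higher mean in BSCs under every alternative run. With each array centred on its median the differences were 2.00 and 1.23, and after quantile normalization 1.90 and 1.07. With array weights, whose estimate stopped before it converged, they were 2.82 and 0.95. Leaving out 1 array gave 1.54 to 2.85 for PDE318 and 0.82 to 1.47 for CRR2. When 11295 probe sets were kept by a mean level of 2 or more, the mean rank of CRR2 was 6825 places nearer the top in BSCs instead of 14958. This filter removes many of the dim probe sets between its BSC and MC ranks, and CRR2 itself passed it only through its BSC arrays.

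The count of probe sets called was 114 as given above. It was 41 with the Student t-test, 256 after quantile normalization and 885 with array weights. With 1 array left out it was 90 to 418, the highest without BSC array 7. Of the chloroplast-encoded genes 2 were called after quantile normalization and 2 with array weights, and 0 to 1 with 1 array left out. Of the NDH subunits 0 to 1 were called with 1 array left out, and of the plastid GTPases 1 with array weights. Of the plastid ribosomal proteins 0 were called with the Student t-test, 0 after centring and 0 with array weights, and 0 to 3 with 1 array left out. The cause of these changes was not tested. Calls in the other gene lists around PDE318 and CRR2 stayed at 0 in the alternatives run for them, and the filter on a mean of 2 left no member of the NOG1, iron and PPR family lists to test. With array weights the median of the plastid GTPases turned to 0.04. For the PIGMENT DEFECTIVE genes no value could be had, since no other member was named. No paired analysis was made, because the labels do not say which BSC and MC pools came from the same preparation.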
